A study of Mus musculus with 10 samples.

Results

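The glutathione S-transferases are described here by 10 genes, Gsta2, Gsta4, Gstm1, Gstm2, Gstm5, Gstp1, Gstt1, Gstt2, Gsto1 and Mgst1, in testes from mice lacking the androgen receptor in Sertoli cells and from control mice. Probe sets were taken where the platform annotation named 1 of these genes and no other, which gave 15 of the 22690 probe sets on the array and 10 of its 12393 named genes. One further probe set named Gsta2 together with Gsta1 and Gm3776 and is described apart. The 10 genes were selected on the SCARKO and control signals of these pools, with the fold changes known, so their differences between the groups are given as a description. Whether a probe set passed the threshold of the array-wide fit is stated below, but no test of these genes is read from it.

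The samples were whole testes of mice aged 10 days. In SCARKO mice the androgen receptor is knocked out selectively in Sertoli cells, and the labels call the control mice AMHCre, which is the transgene carrying Cre recombinase under the anti-Müllerian hormone promoter of Sertoli cells. Each array held a pool of RNA from 1 testis of each of 3 littermates, and there were 5 SCARKO pools and 5 control pools, made as littermate pairs, so pools and not single mice are the replicates. A testis pool holds germ cells, Leydig cells, peritubular cells and others beside Sertoli cells, so fewer cells of a type and less RNA per cell cannot be told apart.

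Glutathione S-transferases join the thiol of glutathione to electrophilic molecules, which makes them more soluble and easier to export. The soluble enzymes fall into classes by sequence, among them alpha (Gsta), mu (Gstm), pi (Gstp), theta (Gstt) and omega (Gsto), and the genes of a class lie in clusters that arose by duplication. Mgst1 belongs to a separate family of membrane proteins. In the testis these enzymes are found in Sertoli, Leydig and germ cells, where they are known for detoxifying lipid peroxidation products and foreign compounds.

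Among the 10 chosen genes, those of the alpha and mu classes differed in sign. Both alpha-class genes among them were lower in SCARKO pools, 1.31-fold for Gsta2 and 1.41-fold for Gsta4. The mu-class genes Gstm1, Gstm2 and Gstm5 were higher by 10.3% to 20.2%, and the theta-class gene Gstt2 was higher by 45.4%. These signs do not describe whole classes. Outside the 10, alpha-class Gsta3 had a log2 fold change of -0.01. The mu-class genes Gstm3, Gstm4, Gstm6 and Gstm7 had -0.01, -0.07, 0.12 and -0.01. Gstp1 and the measured probe set of Mgst1 differed by less than 3%. Of the 15 probe sets, 14 had a mean signal above the dimmest 40% of the array and entered the fit, and these covered all 10 genes. The fit passed 6 of them, 2 as lower and 4 as higher, at a Benjamini-Hochberg adjusted p under 0.05 (limma, pair as block), beside 5.19% of all 13576 fitted probe sets, or 3.26% lower and 1.93% higher. All 5 pairs were lower for 2 of the 14 and higher for 7, beside 8.55% and 9.97% of all fitted probe sets. Nothing is read from these counts, since the genes were chosen with this contrast known. Without the filter on dim probe sets, 0 of the 6 passed by limma, beside 38 probe sets on the whole array. The median log2 fold change was 0.17 over the 14 probe sets and 0.01 over all fitted probe sets, and 11 of the 14 were positive.

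**Figure D1:**
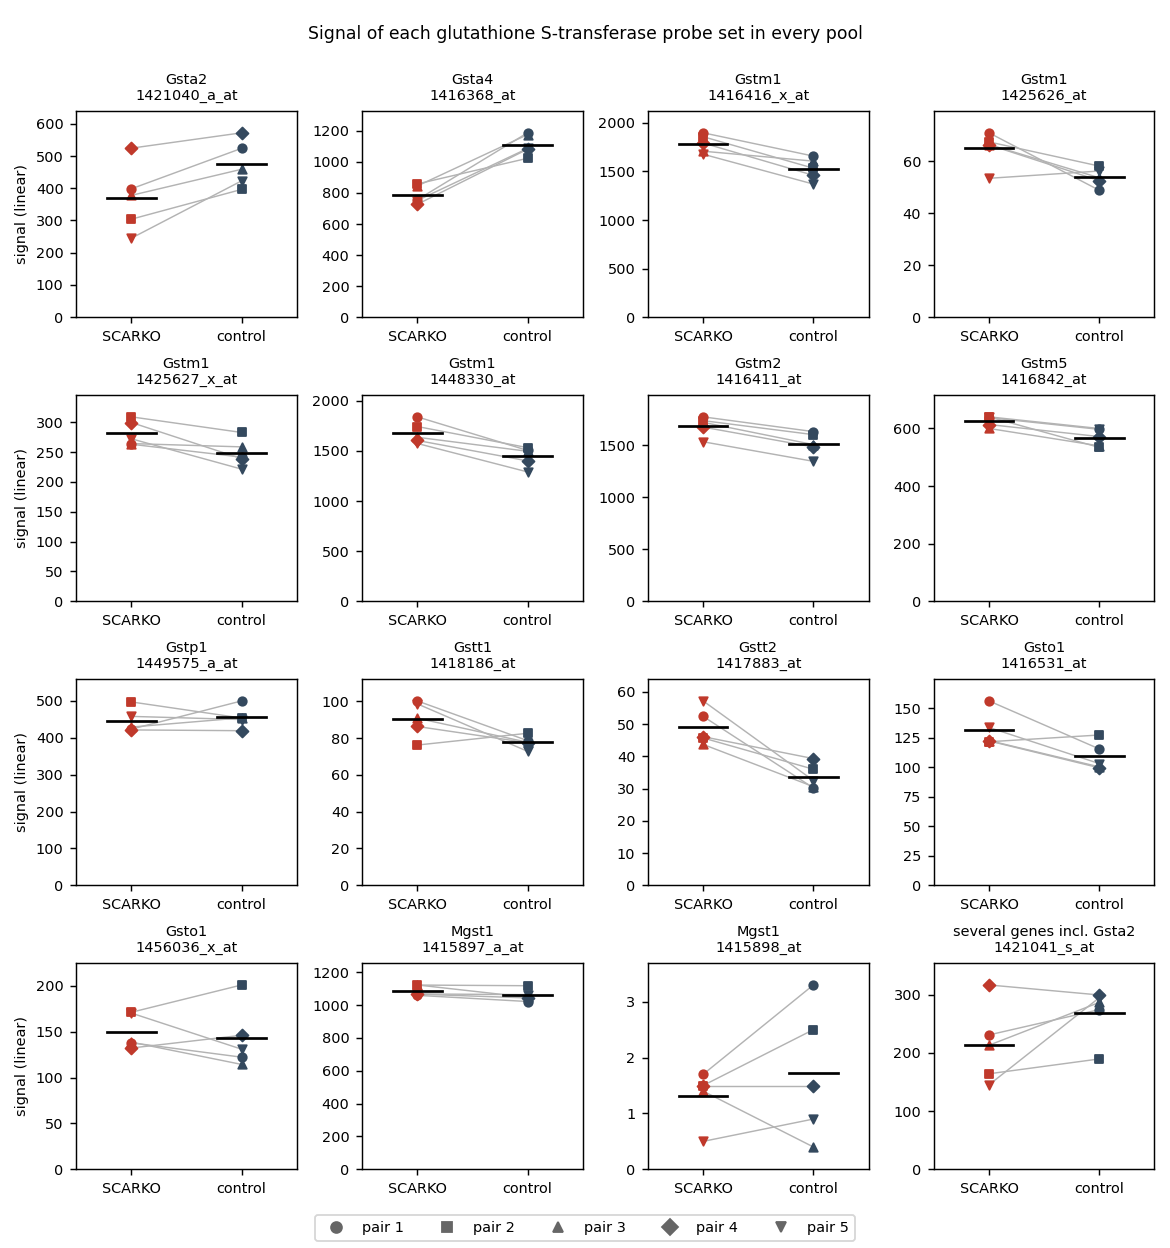
Signal (linear scale, 1 panel per probe set, axis from 0) in the 5 SCARKO pools and 5 control pools, with a grey line joining littermate pools, a marker shape per pair and a black bar at each group mean. SCARKO pools lie below every control pool for Gsta4, and above every control pool for Gstt2, for Gstm5 and for 2 of the 4 Gstm1 probe sets.

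The sequences before the start site are shown for 3 genes that stand for the 3 patterns: Gsta2, which was lower in SCARKO pools, Gstm1, which was higher, and Gstp1, which differed little. RefSeq promoter windows of the mouse build GRCm38.p6 were matched by symbol for 8 of the 10 genes, in 10 windows, and Gsta4 and Gstt2 were not matched. Each line gives the 250 bases before an annotated start, 5′ to 3′ on the gene's strand. Capitals mark matches, on either strand, to the core of the antioxidant response element (TGACNNNGC or TGAGNNNGC, N being any base) or to the half-site of the androgen response element (AGAACA).
Gsta2, chr9:78347146-78347395, - strand: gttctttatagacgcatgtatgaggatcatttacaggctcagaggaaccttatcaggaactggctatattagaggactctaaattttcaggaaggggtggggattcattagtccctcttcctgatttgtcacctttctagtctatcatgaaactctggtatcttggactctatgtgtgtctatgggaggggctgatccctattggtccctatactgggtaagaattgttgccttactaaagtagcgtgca
Gstm1, chr3:108017974-108018223, - strand: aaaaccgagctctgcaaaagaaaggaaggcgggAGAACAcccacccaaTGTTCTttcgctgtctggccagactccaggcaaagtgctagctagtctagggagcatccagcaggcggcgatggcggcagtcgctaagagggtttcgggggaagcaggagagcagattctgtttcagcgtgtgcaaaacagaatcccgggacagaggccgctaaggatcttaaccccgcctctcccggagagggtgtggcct
Gstp1, chr19:4037913-4038162, - strand: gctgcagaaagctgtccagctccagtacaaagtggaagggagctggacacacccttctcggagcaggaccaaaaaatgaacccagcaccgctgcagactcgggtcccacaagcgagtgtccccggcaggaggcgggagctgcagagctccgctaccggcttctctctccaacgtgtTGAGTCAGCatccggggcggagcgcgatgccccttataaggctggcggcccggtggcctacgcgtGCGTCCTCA
The Gsta2 window held no match to these 3 motifs. The Gstm1 window shown, 1 of 2 annotated for that gene, held a half-site on each strand, with first bases at -217 and -202 relative to the start. The Gstp1 window held a match to the G form of the antioxidant core on each strand, with first bases at -74 and -9. These short motifs are common: within 300 bases that also include 50 after the start, the half-site occurred in 19.0% of all 32851 promoter windows, the C form of the core in 12.4% and the G form in 17.6%. Among the 10 windows of the transferase genes, they occurred in 2, 2 and 3 windows. A match describes the letters and is not a shown binding site.

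Gsta4, the alpha-class enzyme that conjugates the lipid peroxidation product 4-hydroxynonenal, had signals of 756.1, 858.2, 845.0, 726.8 and 751.5 in SCARKO pools 1 to 5, against 1187.8, 1023.6, 1176.1, 1082.2 and 1086.8 in control pools 1 to 5. No SCARKO pool reached the lowest control pool. The means were 788 ± 59.7 in SCARKO pools and 1111 ± 69.3 in control pools (SD, n = 5 each), a log2 fold change of -0.50 (SE 0.05), with every pair lower. Pair 2 had the smallest difference, at -0.25 on the log2 scale, and pair 1 the largest, at -0.65. Gsta4 was the 1 probe set of the 14 whose SCARKO pools all lay below the control pools, beside 2.48% of all fitted probe sets, and 4 had all SCARKO pools above, beside 2.03%. In either direction the share was 4.52%.

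Gsta2, another alpha-class enzyme, had signals of 398.3, 304.0, 377.9, 524.3 and 245.1 in SCARKO pools 1 to 5, against 523.9, 396.4, 458.9, 572.0 and 423.0 in control pools. The groups overlapped, and the pairs differed widely: pair 4 was the highest pair in both groups, while each SCARKO pool lay below its own littermate control. The means were 369.9 ± 105.6 in SCARKO pools and 475 ± 72.4 in control pools (SD, n = 5 each), a log2 fold change of -0.39 (SE 0.08). The SD of the pair means was 0.31 on the log2 scale for Gsta2, against 0.07 for Gsta4. Without the pair as a block Gsta2 did not pass the threshold, while its log2 fold change stayed at -0.39.

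The probe set shared by Gsta2, Gsta1 and Gm3776, closely related alpha-class genes that cross-hybridise, had signals of 230.7, 164.0, 213.0, 316.5 and 145.0 in SCARKO pools, against 274.1, 189.5, 286.5, 299.3 and 294.6 in control pools. It was lower in 4 pairs and higher in pair 4, with a log2 fold change of -0.37 (SE 0.12) that did not pass the threshold. Pair 5 had the largest difference, at -1.02, as it did for the Gsta2 probe set at -0.79. Without pair 5 the log2 fold changes were -0.20 for the shared probe set and -0.30 for the Gsta2 probe set. Because of this homology, neither probe set can be assigned to a single alpha-class transcript with certainty.

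Gstm1, a mu-class enzyme, was represented by 4 probe sets. Probe set 1416416_x_at had signals of 1897.6, 1857.5, 1708.2, 1792.8 and 1677.3 in SCARKO pools 1 to 5, against 1657.9, 1533.2, 1606.0, 1460.0 and 1369.6 in control pools. Probe set 1448330_at had 1840.8, 1744.3, 1637.0, 1605.3 and 1575.3 in SCARKO pools, against 1505.6, 1533.4, 1497.0, 1401.1 and 1290.9 in control pools. In both, the lowest SCARKO pool lay just above the highest control pool, and all 5 pairs were higher in SCARKO. The means of 1416416_x_at were 1787 ± 94.2 in SCARKO pools and 1525 ± 114.7 in control pools (SD, n = 5 each), a log2 fold change of 0.23 (SE 0.04). The log2 fold change of 1448330_at was 0.22 (SE 0.03), and this probe set did not pass without the pair as a block. The other 2 probe sets of Gstm1 had overlapping groups, with log2 fold changes of 0.27 (SE 0.09, higher in 4 of 5 pairs) and 0.18 (SE 0.06, higher in 5 of 5 pairs), and did not pass the threshold. The suffix _x_at marks probe sets whose probes also match other transcripts, so signal from other mu-class genes may be included.

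Gstm2, the neighbour of Gstm1 in the mu-class cluster, had signals of 1774.7, 1738.4, 1722.0, 1676.1 and 1534.8 in SCARKO pools 1 to 5, against 1632.6, 1603.5, 1507.6, 1485.0 and 1346.6 in control pools. The groups overlapped, since pool 5 was the lowest of each group, but the pairs were alike, with log2 ratios between 0.12 and 0.19. The means were 1689 ± 93.3 in SCARKO pools and 1515 ± 112.9 in control pools (SD, n = 5 each), with a log2 fold change of 0.16 (SE 0.03). Gstm5, a mu-class enzyme at the other end of the cluster, had signals of 637.6, 640.4, 600.1, 613.7 and 640.4 in SCARKO pools, against 597.0, 534.3, 539.6, 571.9 and 599.9 in control pools. Its groups were separated by the narrow step between 600.1 and 599.9, and its log2 fold change of 0.14 (SE 0.04) did not pass the threshold.

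The mu-class differences were small. Gstm2 and the Gstm1 probe sets 1416416_x_at and 1448330_at had a mean log2 signal over 10, where the median log2 fold change of all fitted probe sets was 0.05. After quantile normalization, 1416416_x_at had a log2 fold change of 0.18, 1448330_at 0.17 and Gstm2 0.11, and Gstm2 no longer passed the threshold. Gstm2 also did not pass without pair 3, without pair 5 or without the block, where its log2 fold change was 0.15 to 0.16.

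Gstt2, a theta-class enzyme, had signals of 52.4, 45.7, 43.7, 46.1 and 57.2 in SCARKO pools 1 to 5, against 30.2, 36.0, 30.6, 39.3 and 32.5 in control pools. All SCARKO pools lay above all control pools, and pairs 1 and 5 had the largest log2 ratios, at 0.80 and 0.82, against 0.23 to 0.51 in the others. The means were 49.0 ± 5.62 in SCARKO pools and 33.7 ± 3.87 in control pools (SD, n = 5 each), a log2 fold change of 0.54 (SE 0.11). The median signal of the arrays was 36.4 to 37.6. With 16 added before log2, the log2 fold change was 0.39. Without pair 1, 3 or 5 Gstt2 did not pass the threshold, with log2 fold changes of 0.48, 0.55 and 0.47.

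Gstt1, its theta-class relative and a conjugator of small halogenated compounds, had signals of 100.2, 76.2, 90.8, 86.3 and 98.6 in SCARKO pools, against 78.6, 82.6, 77.7, 77.5 and 72.8 in control pools. It was higher in SCARKO in 4 pairs and lower in pair 2, and the groups overlapped through SCARKO pool 2. Its log2 fold change was 0.21 (SE 0.08), which did not pass the threshold.

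Gsto1, an omega-class enzyme that reduces dehydroascorbate and disulfides, had 2 probe sets that differed from each other. Probe set 1416531_at had signals of 156.2, 121.6, 122.6, 122.3 and 133.7 in SCARKO pools, against 115.5, 127.3, 100.3, 99.5 and 103.1 in control pools, with a log2 fold change of 0.27 (SE 0.08). Probe set 1456036_x_at had 138.0, 171.3, 138.7, 132.3 and 170.4 in SCARKO pools, against 122.3, 201.1, 114.4, 146.2 and 131.0 in control pools, with a log2 fold change of 0.09 (SE 0.09). Pair 2 was lower in SCARKO for both, and neither passed the threshold with all pairs. Without pair 2 the first passed, at 0.35. The log2 fold change of 1456036_x_at was 0.17 without pair 2, 0.15 without pair 4, 0.045 without pair 3 and 0.019 without pair 5.

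Gstp1, the pi-class enzyme, had signals of 423.3, 497.1, 429.0, 421.2 and 457.9 in SCARKO pools, against 499.9, 453.4, 453.9, 419.1 and 449.4 in control pools. Pairs pointed both ways, and the log2 fold change was -0.03 (SE 0.05), or 0.02 without pair 1. Mgst1, the membrane-bound enzyme of the endoplasmic reticulum and outer mitochondrial membrane, had 1058.9, 1121.5, 1122.2, 1066.0 and 1067.4 in SCARKO pools, against 1021.4, 1117.5, 1047.0, 1043.3 and 1063.3 in control pools. All 5 Mgst1 pairs were higher in SCARKO, but by 2.72% on average, a log2 fold change of 0.04 (SE 0.03), and the groups overlapped. Its pools varied least among the fitted probe sets of the 10 genes in both groups, with coefficients of variation of 2.92% in SCARKO pools and 3.42% in control pools, while those of Gsta2 were 28.6% in SCARKO pools and 15.2% in control pools. The second Mgst1 probe set had signals of 0.5 to 1.7 in SCARKO pools and 0.4 to 3.3 in control pools and was left out of the fit as too dim.

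**Figure D2:**
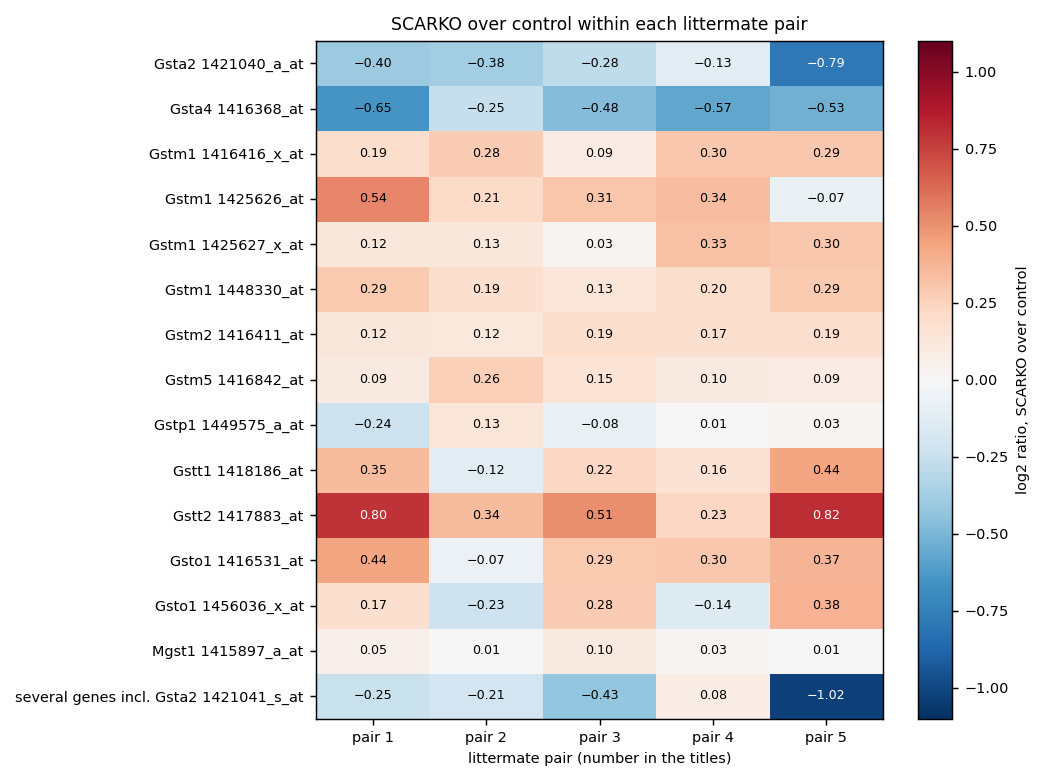
Log2 ratio of the SCARKO pool over its littermate control pool, for the 14 fitted probe sets of the 10 genes and the probe set shared by several genes (rows) in each of the 5 pairs (columns), blue for lower and red for higher in SCARKO. Gsta2 and Gsta4 are blue in every pair, and Gstm2 and Gstt2 are red in every pair.

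The titles and the descriptions of the samples disagree on the genotype in 4 of the 5 pairs, and the titles were followed. Rhox5, a homeobox gene of Sertoli cells known to depend on androgen, had signals of 8.6, 12.7, 8.5, 7.9 and 9.7 in SCARKO pools 1 to 5, against 146.4, 86.6, 241.4, 204.3 and 212.1 in control pools. With the groups of the titles it was thus lower in SCARKO in 5 of 5 pairs, by log2 ratios of -2.77 to -4.83, and pair 5 had -4.45. In pair 5, where both labels match, 12 of the 14 fitted probe sets had the sign of the mean of the other 4 pairs, including the 6 that passed the threshold. The exceptions were Gstp1 and the Gstm1 probe set 1425626_at, whose pair 5 ratio was -0.07. Pair 5 was part of the fit and of the signals on which the genes were chosen. This count is thus a description and no check of the labels. With those 4 pairs regrouped by their descriptions, 0 probe sets on the array passed by limma, 611 having an unadjusted p under 0.05, and Gsta4 had a log2 fold change of 0.28.

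Other genes listed with the superfamily were not among the 10. The list held 27 genes, of which 14 were fitted. Ptgds, counted among the 14, lies outside the superfamily. The list was written with earlier results of these data known, so its counts are a description and no independent test. Ptges, the membrane prostaglandin E synthase, of the same membrane protein family as Mgst1, rose to 30.2 ± 5.89 in SCARKO pools, against 18.5 ± 3.66 in control pools (SD, n = 5 each; log2 fold change 0.71, SE 0.14, limma adjusted p = 0.012, higher in 5 of 5 pairs). It was the 1 gene of the 14 to pass, beside 5.69% of the 7973 genes tested. Its control mean lay under the filter limit of 19.3, so this dim probe set entered the fit only through its SCARKO signals. Its call is thus a description and no support for a difference. Ptges did not pass without pair 3 (limma adjusted p = 0.057) or pair 5 (limma adjusted p = 0.055). Adding 16 to the signals lowered this log2 fold change to 0.42.

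Within the mu-class cluster, Gstm6, which lies beside Gstm2 with Gstm3 between them, had a mean of 975 ± 68.6 in SCARKO pools and 894 ± 33.8 in control pools (SD, n = 5 each). Its log2 fold change of 0.12 (SE 0.04) had the same sign in 5 of 5 pairs and did not pass (limma adjusted p = 0.084). Gstm7, Gstm4 and Gstm3 had log2 fold changes of -0.01, -0.07 and -0.01, so the mu-class genes measured did not all have one sign. The alpha-class gene Gsta3 had -0.01 and the theta-class gene Gstt3 had 0.22 (SE 0.13, limma adjusted p = 0.35). Gstz1 (0.01), Gstk1 (0.14) and Mgst3 (-0.01) did not pass either. The median log2 fold change of the 14 genes was 0.01.

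**Figure D3:**
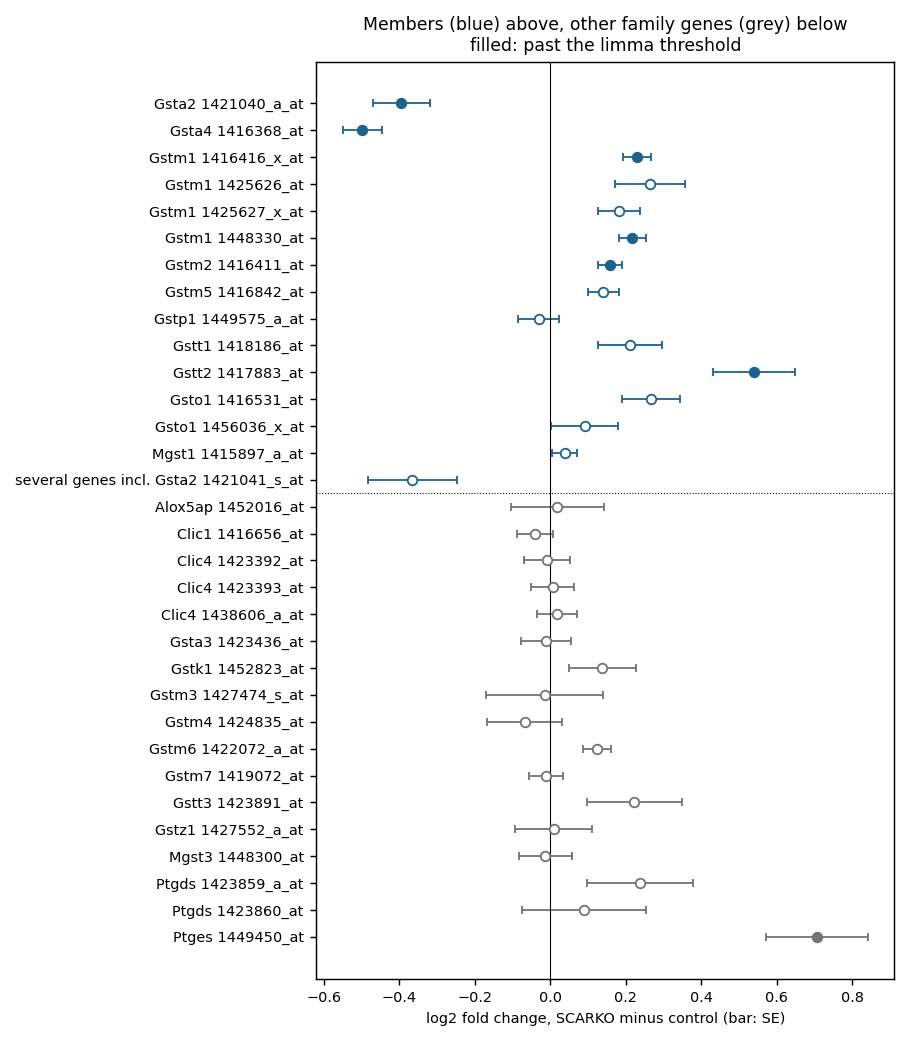
Log2 fold change, SCARKO minus control, with its SE (limma, n = 5 pairs). The 10 genes' fitted probe sets and the shared probe set are in blue. Below them in grey are the fitted probe sets of the other genes listed with the superfamily, Ptgds included. Filled points passed the threshold: the alpha-class points lie left of 0, the mu-class and theta-class points of the 10 genes lie right of it, and Ptges is the 1 filled grey point.

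Of 23 fitted genes listed for the supply and use of glutathione outside the transferases, 1 passed by limma, beside 5.69% of all genes. Cdo1, cysteine dioxygenase, which oxidises the cysteine that glutathione synthesis also uses, fell to 42.9 ± 6.34 in SCARKO pools, against 91.6 ± 16.8 in control pools (SD, n = 5 each; log2 fold change -1.09, SE 0.10, limma adjusted p = 0.00018, lower in 5 of 5 pairs). Gclc and Gclm, the subunits of the rate-limiting enzyme of glutathione synthesis, had log2 fold changes of -0.0024 and -0.08, glutathione synthetase Gss had -0.01 and glutathione reductase Gsr had 0.08, none of which passed. The next by p were Idh1, an NADPH source (0.15, limma adjusted p = 0.091), and the peroxidase gene Gpx1 (0.11, limma adjusted p = 0.15). The list median was 0.05. Without the filter on dim probe sets, Cdo1 passed (limma adjusted p = 0.047) and Ptges did not (limma adjusted p = 0.11).

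Of 28 genes of the thioredoxin system and other antioxidant enzymes, 0 passed by limma, beside 5.69% of all genes. An unadjusted limma p under 0.05 was found for 1 gene, beside 21.7% of all genes. That gene was Sod3, the extracellular superoxide dismutase, with a log2 fold change of -0.33 (SE 0.11, limma adjusted p = 0.13). Catalase (Cat, 0.15) and biliverdin reductase A (Blvra, -0.17) came next. Hmox1 (0.08), Nqo1 (0.11) and Txnrd1 (0.05), known targets of the NRF2 transcription factor that also drives many transferase genes, did not pass.

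Of 21 genes of other conjugation, reduction and export, 3 fell and 1 rose, beside 3.52% and 2.17% of all genes. Akr1b8, an aldo-keto reductase, fell to 585 ± 29.8 in SCARKO pools, against 704 ± 23.7 in control pools (SD, n = 5 each; log2 fold change -0.27, SE 0.04, limma adjusted p = 0.0053). Tpmt, thiopurine methyltransferase, fell by 0.30 on the log2 scale (limma adjusted p = 0.038) in its 1 fitted probe set. Another Tpmt probe set, too dim for the fit, had a log2 fold change of -0.04, lower in 2 pairs and higher in 3. The aldehyde dehydrogenase gene Aldh1a7 fell by 0.54 (limma adjusted p = 0.046, lower in 4 of 5 pairs). Cbr1, carbonyl reductase, rose to 110.4 ± 5.49 in SCARKO pools, against 88.6 ± 5.46 in control pools (SD, n = 5 each; log2 fold change 0.32, SE 0.06, limma adjusted p = 0.014). Tpmt did not pass when any 1 pair was left out (limma adjusted p = 0.070 to 0.11), Aldh1a7 passed only without pair 2 among those 5 fits, and Cbr1 did not pass without pair 3 or 5 (0.063 and 0.057). Without the block Tpmt and Aldh1a7 did not pass (limma adjusted p = 0.061 and 0.16), and without the filter none of the 4 did (limma adjusted p = 0.066 to 0.25). Aldh1a7 is close in sequence to Aldh1a1, which had a log2 fold change of 0.12 and did not pass. In these 21 genes, 12 had an unadjusted p under 0.05, beside 21.7% of all genes, and their median log2 fold change was 0.01.

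**Figure D4:**
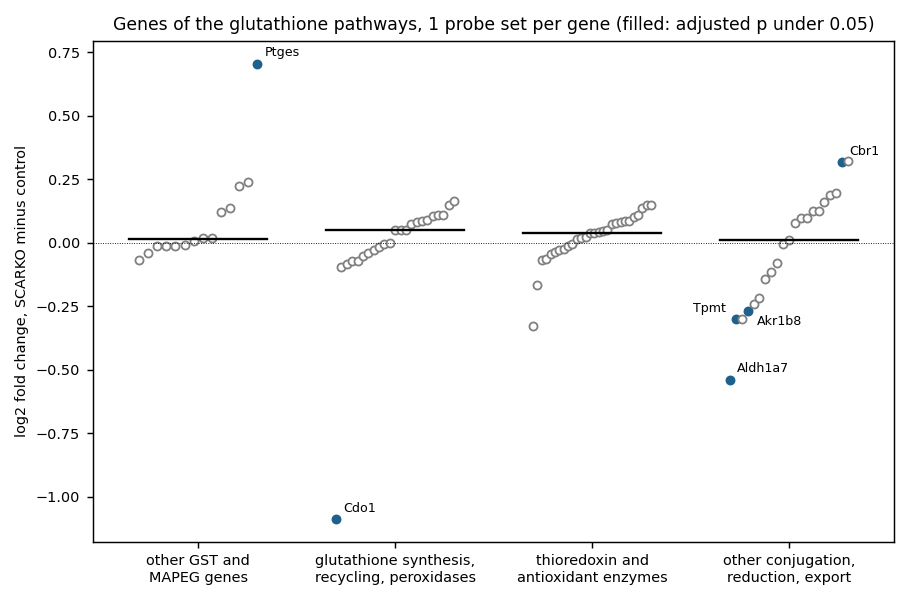
Log2 fold change, SCARKO minus control, of each fitted gene in 4 lists, 1 probe set per gene, ordered within a list by value, with a black bar at the list median. Filled points passed at an adjusted p under 0.05: Ptges, Cdo1, Tpmt, Akr1b8, Aldh1a7 and Cbr1 are named beside theirs.

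The genes whose values ran most alike over the 10 pools were found by the root mean square difference of centred log2 values, for the 2 transferase genes with the largest log2 fold change. Closest to Gsta4 were Slc25a5, an adenine nucleotide translocator (0.08), the ceramide synthase gene Cers5 (0.08) and Gnai1, an inhibitory G protein subunit (0.09), where Gsta4 itself deviated by 0.26 from a flat line. Each of these had SCARKO pools below all control pools, with log2 fold changes of -0.49, -0.47 and -0.40. Closest to Gstt2 were Pm20d1 (0.10), the ligand gene Wnt5a (0.13) and the cytokine gene Il15 (0.13), where Gstt2 itself deviated by 0.31. Their log2 fold changes were 0.50, 0.53 and 0.50, and their SCARKO pools lay above all control pools. Each of these genes, like Gsta4 and Gstt2, had a group difference, which enters this measure.

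The tissue was checked against its markers. Sox9 of Sertoli cells had signals of 168 ± 12.9 in SCARKO pools and 163 ± 16.1 in control pools for its brighter probe set (SD, n = 5 each). Ddx4 of germ cells had 484 ± 24.4 in SCARKO pools and 471 ± 35.6 in control pools, and Cyp17a1 of Leydig cells had 260.7 ± 112.2 in SCARKO pools and 259 ± 89.3 in control pools. Amh of Sertoli cells was dim, at 17.5 ± 2.71 in SCARKO pools and 30.1 ± 11.4 in control pools. Of 8 erythroid markers 5 had a probe set, and none of those 5 was bright enough to be fitted. Sertoli cell markers included 5 that fell and 3 that rose among 16 fitted of 19, beside 3.52% and 2.17% of all genes. Rhox5, Cldn11, Nr0b1, Amhr2 and Gata1 fell, with log2 fold changes of -4.17 to -0.43, and Kitl, Fshr and Gdnf rose, with 0.24 to 0.42. The summed signal of the 16 was 8373 to 8915 in SCARKO pools, against 8791 to 9483 in control pools. Germ cell markers included 3 that fell among 14 fitted of 15, beside the same 3.52%, namely Stag3 (-0.42), Hspa2 (-0.31) and Tex15 (-0.24, log2 fold changes). The 14 had sums of 4818 to 5776 in SCARKO pools, against 4874 to 6372 in control pools. Of 10 fitted Leydig markers of 14, 0 passed by limma (unadjusted p under 0.05 for 2), with sums of 1833 to 2345 in SCARKO pools, against 1850 to 2223 in control pools. Sums of 10 fitted myoid markers of 11 were 3719 to 4286 in SCARKO pools, against 4121 to 4555 in control pools, and 0 passed by limma (unadjusted p under 0.05 for 2). In the macrophage and endothelial lists 0 passed by limma as well (unadjusted p under 0.05 for 2 of 12 and 1 of 10). An unadjusted limma p under 0.05 was found for 9 of the 16 Sertoli cell markers and 8 of the 14 germ cell markers. The share of all genes was 21.7%. Lpl, the 1 gene fitted of 10 on the array for liver, epididymis and fat, rose by 0.51 on the log2 scale. The part of cell composition in the transferase differences was not tested.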

How the data were processed

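The authors deposited 1 linear Affymetrix signal intensity per probe set for each of 10 arrays; MAS5 is named for 8 of them per the submitters' processing notes, without version or settings, and no source used here names a tool for pair 5. The mean after trimming 2% at each end was 100.03 on every array, and medians were 36.4 to 37.6. Precision is limited by the number of arrays. Probe sets were named by the platform annotation, with symbols brought up to date by gene ID in the GRCm38.p6 gene table, whose coordinates served only for promoter windows and neighbours. The targeted gene is not reported here.

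Signals were floored at 1 and put on the log2 scale without renormalizing. The dimmest 40% of probe sets by mean were left out (under a signal of 19.3), which kept 13576. The fit used limma 3.58.1 (R 4.3.3), blocked by littermate pair, with intensity-trended moderated variances, two-sided p-values and Benjamini-Hochberg adjustment over every kept probe set. Log2 fold changes are SCARKO minus control, and "passed" means an adjusted p under 0.05. In lists, a gene is its brightest kept probe set that names 1 gene (7973 genes). The script was tested on simulated data.

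The pairs come from the titles and the labels' protocols, which describe pools of littermates. The deviations of same-numbered pools had correlations of 0.27, 0.19, 0.19, 0.11 and 0.39 in pairs 1 to 5 over the kept probe sets. The highest correlations with a pool of another number were -0.01, 0.08, 0.11, 0.11 and 0.01. Pair 4 thus did not stand out from differently numbered pools.

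The 10 genes and all lists were chosen with earlier results of these data known. Named by rule are all probe sets of the 10 genes, the called genes of the 4 pathway lists, the 3 of smallest p in each pathway list beyond the transferase superfamily and the 3 nearest genes of 2 members; other genes, the cell markers included, were named after values were seen. Alternatives left out the block, the filter or 1 pair, raised the filter to 60%, added 16 before log2, used quantile normalization, averaged probe sets per gene or took groups from the descriptions.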

Additional observations from a re-analysis of the deposited data

Results flagged for a closer look

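In 2 of 30 sets of 5 pools (15 probe sets in each group), 1 pool stood far from the other 4 by Dixon's test, where chance gives about 1.5. SCARKO pool 5 had a signal of 53.4 for the Gstm1 probe set 1425626_at, the lowest of its group. On the log2 scale its gap was 0.76 of the group's range. Control pool 2 had a signal of 189.5 for the probe set shared by Gsta2, Gsta1 and Gm3776, with a gap of 0.81 of the log2 range. Without pair 5 the log2 fold change of that Gstm1 probe set was 0.35, against 0.27 with all pairs, and without pair 2 that of the shared alpha-class probe set was -0.40, against -0.37.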

How the results depend on the processing

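The number of arrays limits the precision of these results. With the pair as a block, 6 of the 14 fitted probe sets of the 10 genes passed, and 704 on the array (5.19% of those fitted). Pathway genes were those of the lists with 23, 28 and 21 genes fitted there, and 5 of them passed, beside 5.69% of all genes. Without the replicate block 3 of the 10 genes' probe sets (1 lower, 2 higher) and 404 on the array passed, and pathway genes 3 in place of 5. Without the filter on dim probe sets these counts were 0, 38 and 1, and with groups from the descriptions 0, 0 and 0. With the groups from the descriptions, limma had 611 of 13576 probe sets at an unadjusted p under 0.05. With the groups of the titles it had 2833 of 13576, and without the filter 3339 of 22626. Leaving out 1 pair gave 304 to 744 on the array (2.24% to 5.48% of those fitted). It gave 4 to 7 for the 10 genes, 0 to 1 for other superfamily genes and 2 to 6 for pathway genes. The lowest array counts were 304 without pair 3, 345 without pair 5 and 426 without pair 1. Other superfamily genes gave 0 calls in 5 alternatives: with no filter, with the filter raised to 60% (Ptges was then not fitted), with groups from the descriptions, without pair 3 and without pair 5. Averaging probe sets per gene gave 8 pathway genes (7 lower). Without the filter, 195 of the 22626 probe sets fitted had no residual variance, and limma's median prior degrees of freedom were 1.73, against 7.34 with the filter. In 2 counts added after seeing the data, adjusting for all 22626 tests with the variance fitted on the probe sets kept gave 494 calls, and fitting the variance on all with adjustment over those kept gave 180. The larger number of tests thus accounted for only part of the fall to 38. For the other settings the cause was not tested.

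With groups from the descriptions, signs turned for Gsta2 (0.079), Gsta4 (0.28), Gstm1 (-0.11 and -0.10), Gstm2 (-0.083), Gstt2 (-0.21), Ptges (-0.35), Cdo1 (0.73), Akr1b8 (0.10), Cbr1 (-0.19), Tpmt (0.23) and Aldh1a7 (0.32). Under every other alternative in which they were fitted, those genes kept their sign. Gstt2, Cdo1 and Ptges were not fitted with the filter at 60%. In this balanced design the block and the filter cannot change a log2 fold change. Leaving out 1 pair cannot turn a sign that all 5 pairs share, as they did for each of those genes but Aldh1a7. Quantile normalization and 16 added before log2 moved the median of all probe sets by under 0.01 (0.011 and 0.012, against 0.014).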
